A study of Homo sapiens with 6 samples.

Results

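The genes described here encode the accessory subunits of the sodium pump and the cation-chloride cotransporters that MCF10A cells could express. They are ATP1B1, ATP1B3, FXYD3, FXYD5, SLC12A2, SLC12A4, SLC12A7 and SLC12A8, and all 8 were found by symbol among the 20802 genes measured. The 8 genes were chosen by name with earlier results of the same libraries known, so that the values of the GIRK1 libraries against the controls are given below as a description. The calls of the fit across all genes are counted for them, but no p-value is given for any of the 8 and nothing is read from those counts. MCF10A is an established, non-tumorigenic line of human mammary epithelium. The sequenced cultures were of 3 kinds: the untransfected parental line (wt), a line stably transfected with the pIRES2eGFP vector alone (eGFP), and a line stably transfected with the same vector carrying the coding sequence of human GIRK1, the potassium channel subunit encoded by KCNJ3 (GIRK1). Both transfected lines were selected with G418 and sorted by eGFP fluorescence, whereas the parental line was neither transfected nor selected. Each kind was represented by 2 libraries, made by amplification of 1 short amplicon per gene (Ion AmpliSeq Transcriptome). Whether the 2 libraries of a kind came from separate lines or from repeat cultures of 1 line is given differently by the sources, and nothing states that they were grown separately, so that p-values below measure only the spread between these libraries, which may be technical. In such bulk libraries fewer cells of a type and less RNA per cell cannot be told apart.

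The sodium pump (Na,K-ATPase) exports sodium and imports potassium against their gradients and thereby maintains the potassium gradient on which potassium channels such as GIRK act. It consists of a catalytic alpha subunit, a beta subunit that carries the enzyme to the plasma membrane and contributes to cell adhesion, and a small FXYD protein that tunes its transport kinetics. The SLC12 family moves chloride together with cations: SLC12A2 (NKCC1) imports sodium, potassium and chloride, SLC12A4 (KCC1) and SLC12A7 (KCC4) export potassium with chloride, and both directions are used by epithelial cells to set their volume and chloride content. SLC12A8 is a distant relative whose substrate is less settled.

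Library size ranged from 2506120 reads (wt replicate 1) to 16040556 reads (wt replicate 2), and 3 reads, taken here as the detection floor, corresponded to between 0.187 and 1.20 RPM (reads per 1000000 reads of the library). KCNJ3 had 2408 and 3677 reads in the GIRK1 libraries and none in the eGFP libraries or in wt replicate 2. The library labelled wt replicate 1 stood apart. It had 48 KCNJ3 reads, and its log2 ratio to wt replicate 2 had an SD of 1.58 across the 9288 genes that averaged 50 reads or more, against 0.62 between the eGFP libraries and 0.33 between the GIRK1 libraries. Of 12 markers of luminal mammary epithelium, 12 were above the floor in wt replicate 1 (summed level 19354 RPM), against 5 to 7 in the other libraries (532 to 1030 RPM), where ESR1, PGR, KRT19 and TFF1 were at 0. Of 12 markers of basal epithelium, 4 were above the floor in wt replicate 1 (59.1 RPM in sum) and 11 in each of the others (9939 to 18703 RPM), and TP63 was at 0 in all 6. These values go against the label of a parental MCF10A culture, and a labelling error or another cell line cannot be told apart here from a difference between parental cultures. The GIRK1 libraries were therefore compared with the eGFP libraries and with wt replicate 2 (together called the controls), and wt replicate 1 is shown separately. The GIRK1 libraries also carry a label in the deposited data that none of the others carries. If it marks a sequencing run, run and genotype cannot be told apart.

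For the 3 genes whose level was lower in both GIRK1 libraries than in all controls, the 250 bases upstream of the RefSeq gene start (GRCh38.p14) are shown. The genes were picked by that direction alone, and a part of these sequences in the levels was not tested. The sequences are written in the direction of transcription, with matches to 2 motifs in capitals: the GC box (GGGCGG on either strand) and the CCAAT box (CCAAT on either strand). TATAAA, searched in the same way, was found in none of them.
SLC12A8, chromosome 3, 125211400 to 125211649, minus strand: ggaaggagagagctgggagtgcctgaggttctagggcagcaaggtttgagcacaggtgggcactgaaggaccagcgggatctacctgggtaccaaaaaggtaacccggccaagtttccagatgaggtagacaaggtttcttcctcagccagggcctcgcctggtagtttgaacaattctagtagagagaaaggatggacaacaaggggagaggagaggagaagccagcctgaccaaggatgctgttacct
ATP1B1, chromosome 1, 169106440 to 169106689, plus strand: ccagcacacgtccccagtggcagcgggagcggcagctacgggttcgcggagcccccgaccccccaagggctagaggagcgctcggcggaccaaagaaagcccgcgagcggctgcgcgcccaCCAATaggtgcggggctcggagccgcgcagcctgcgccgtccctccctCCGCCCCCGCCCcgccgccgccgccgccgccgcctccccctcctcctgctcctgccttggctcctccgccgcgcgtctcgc
FXYD5, chromosome 19, 35154485 to 35154734, plus strand: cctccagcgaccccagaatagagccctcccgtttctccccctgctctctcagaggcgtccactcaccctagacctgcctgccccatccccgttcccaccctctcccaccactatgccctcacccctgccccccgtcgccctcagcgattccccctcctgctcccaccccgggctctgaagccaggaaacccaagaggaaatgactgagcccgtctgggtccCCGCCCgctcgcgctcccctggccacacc
These upstream sequences differed in composition. That of SLC12A8 held 3 CG dinucleotides and no searched motif, that of FXYD5 held 13 CG dinucleotides and 1 GC box, and that of ATP1B1 held 35 CG dinucleotides, 2 GC boxes that adjoin each other and 1 CCAAT box. Of the genes whose levels overlapped the controls, ATP1B3 held 39 CG dinucleotides and 4 GC boxes, and SLC12A2 held 40 and 3. SLC12A7 held 28 and 4, and FXYD3 held 8 and 0. SLC12A4 had 4 upstream entries and was not counted. Among 35116 RefSeq upstream sequences of equal length, 42.6% contained a GC box, 32.0% a CCAAT box and 10.7% a TATAAA motif, and the median number of CG dinucleotides was 11. For ATP1B1 and SLC12A8 the window lies inside the gene as GENCODE draws it, since GENCODE lists 3 and 16 distinct transcript starts for these genes.

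**Figure D1:**
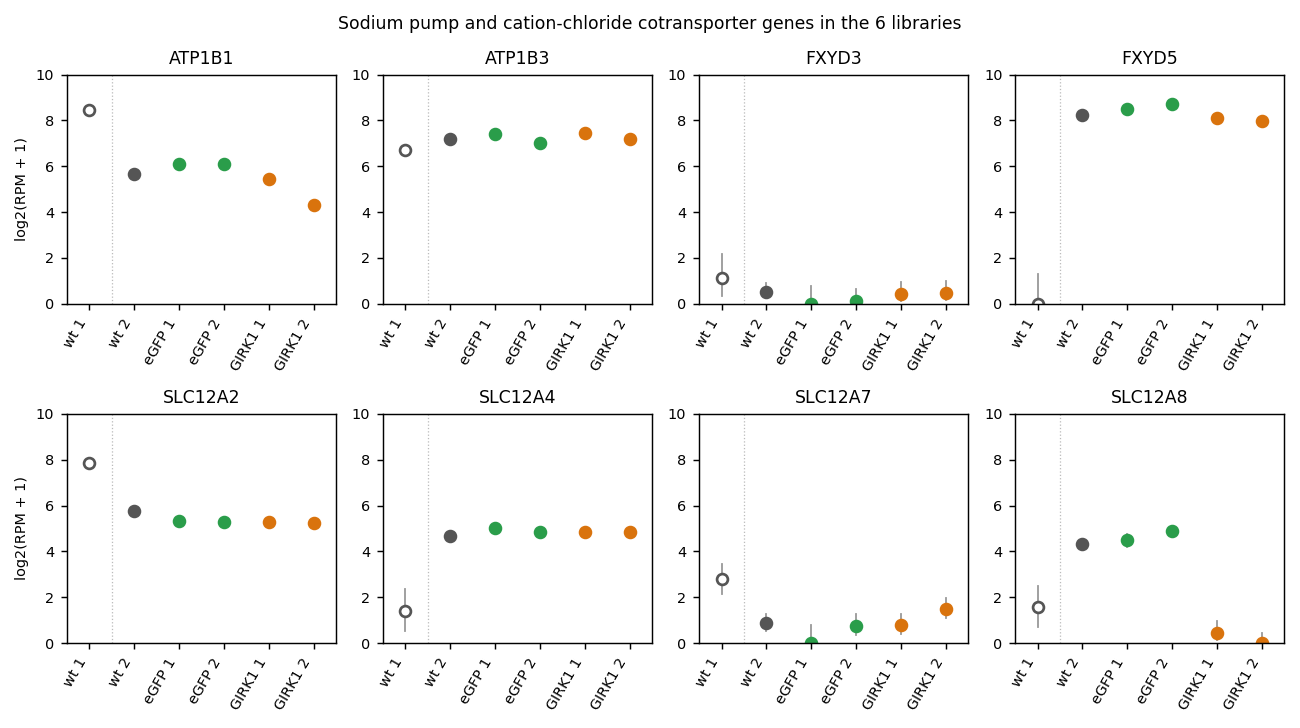
Level of each of the 8 genes in the 6 libraries as log2(RPM + 1), with grey bars for the exact 95% counting interval. Grey points are wt, green eGFP and orange GIRK1, and the open point left of the dotted line is wt replicate 1. SLC12A8 was near or below the floor in both GIRK1 libraries, ATP1B1 and FXYD5 lay below the controls, and wt replicate 1 differed from the other libraries in most panels.

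Of the 8 genes, 3 had both GIRK1 libraries below all 3 control libraries (SLC12A8, ATP1B1 and FXYD5), 0 had both above, and 5 overlapped. Among all 11389 genes with enough reads to be tested against the 3 controls, 19.5% had both GIRK1 libraries below and 21.6% had both above. By the quasi-likelihood test of edgeR (Benjamini-Hochberg adjusted p below 0.05), 1 of the 8 genes was called lower (SLC12A8) against the eGFP libraries and against the 3 controls, where 0.84% and 0.413% of all tested genes were called lower. Of the 8, 7 had enough reads for the former comparison (all but FXYD3) and 6 for the latter (all but FXYD3 and SLC12A7). None of those tested was called higher, where 0.756% and 0.799% of all tested genes were. By the criterion of the study (means at least 2-fold apart, each with a variation coefficient under 0.7), 1 gene was lower than in eGFP (ATP1B1), as were 5.17% of the 13200 genes compared, and 0 were higher, beside 4.75%. The study does not state the normalization or which group the coefficient is taken over. Here RPM and each group were used, and genes with 0 reads in both libraries of a group were left out. SLC12A8 missed this criterion because its GIRK1 libraries held 4 and 0 reads. Since these 8 genes were named with this contrast known, the counts describe them and carry no further weight.

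SLC12A8 (chromosome 3, 125082636 to 125212864, minus strand, GRCh38) showed the largest difference. The eGFP libraries contained 109 and 291 reads (21.3 and 28.4 RPM), wt replicate 2 contained 305 (19.0 RPM), and the GIRK1 libraries contained 4 and 0 (0.360 and 0 RPM). The controls thus lay close to each other, at a mean of 22.9 ± 4.92 RPM (SD, n = 3), and the gene was nearly lost from both GIRK1 libraries, at 0.180 ± 0.255 RPM (SD, n = 2). From the pooled reads, 705 in the controls against 4, the level was 120-fold lower in GIRK1 (exact 95% interval 46.8 to 443), and against eGFP alone it was 140-fold lower (54.1 to 515). These intervals cover counting error only, from reads pooled over libraries, and leave out the spread between libraries. They treat reads as independent, although reads from PCR are not independent molecules, so they may be too narrow. For the second GIRK1 library, 0 of 10346572 reads allows a level of up to 0.290 RPM by the floor of 3 reads, and the exact 95% upper limit is 0.357 RPM. The amplicon covers bases 97 to 204 of transcript NM_024628, so transcripts without these bases were not read. With wt replicate 1 added to the fit the gene was no longer called against either set of controls (log2 fold change -7.01 and -6.52).

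The genes whose profile over the 5 libraries was most like that of SLC12A8 were IGFBP7 and SPARC, the nearest 2 among 9288 genes ranked by Euclidean distance of centred log2(RPM + 1). The distances were 1.12 and 1.34. IGFBP7, a secreted growth factor-binding protein, had 28.8, 59.9 and 35.6 RPM in wt replicate 2 and the eGFP libraries and 0.450 and 0.097 RPM in the GIRK1 libraries. SPARC, a matricellular glycoprotein, had 31.7, 104 and 52.2 RPM against 1.89 and 0.483 RPM in the same order. Both share the low level in GIRK1 that the ranking selects for.

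Among the subunits of the sodium pump, the beta subunits differed from each other. ATP1B1 encodes the beta-1 subunit, the usual partner of the catalytic subunit in epithelia (chromosome 1, 169105697 to 169132722, plus strand). It had 66.5 RPM in each eGFP library (341 and 681 reads), 49.3 RPM in wt replicate 2 (790 reads), and 42.3 and 19.0 RPM in the GIRK1 libraries (470 and 197 reads). Both GIRK1 libraries lay below every control, but the GIRK1 libraries differed from each other by 2.22-fold. The GIRK1 mean of 30.7 ± 16.5 RPM (SD, n = 2) was 50.5% of the control mean of 60.8 ± 9.98 RPM (SD, n = 3). The fitted log2 fold change was -1.16 (standard error 0.36) against eGFP and -1.01 (standard error 0.35) against the 3 controls, and it was -1.83 and -0.71 against eGFP when the first or the second GIRK1 library was left out.

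ATP1B3 encodes the beta-3 subunit (chromosome 3, 141876124 to 141926514, plus strand). Its level was 170 and 127 RPM in eGFP, 146 RPM in wt replicate 2, and 172 and 145 RPM in GIRK1. The GIRK1 values lay within or just above the range of the controls, with a fitted log2 fold change of 0.04 (standard error 0.25) against eGFP and 0.07 (standard error 0.21) against the 3 controls. The genes of most similar profile (distances 0.06 to 0.07) were C20orf72, DCUN1D1 and MFSD8. The other beta subunit genes, ATP1B2 and ATP1B4, had at most 3 reads in each of the 5 libraries.

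Ratios within a library do not depend on library size, and the efficiency of an amplicon cancels when the same ratio is compared between libraries. The ratio of ATP1B1 to ATP1B3 reads was 0.337 in wt replicate 2, 0.391 and 0.524 in the eGFP libraries, and 0.246 and 0.132 in the GIRK1 libraries. Its mean was 0.417 ± 0.0961 (SD, n = 3) in the controls and 0.189 ± 0.0812 (SD, n = 2) in GIRK1. All 3 control ratios lay above both GIRK1 ratios.

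**Figure D2:**
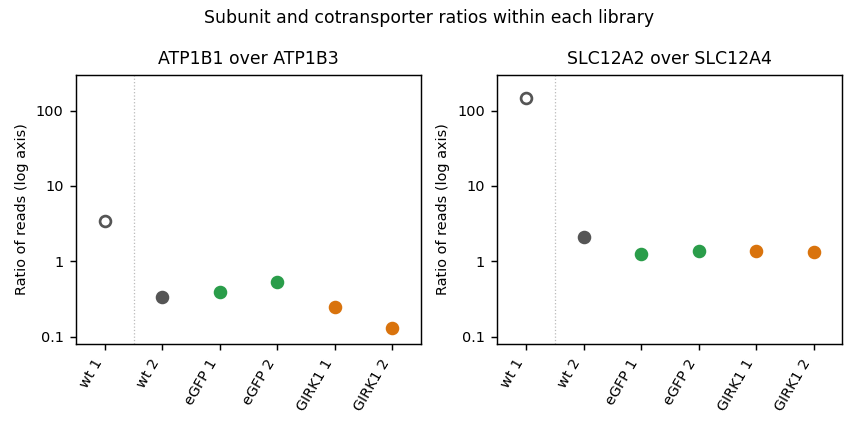
Ratio of reads of ATP1B1 to ATP1B3 (left) and of SLC12A2 to SLC12A4 (right) within each library, on a log axis, with 1 point per library (grey wt, green eGFP, orange GIRK1, open point wt replicate 1). The ratio of ATP1B1 to ATP1B3 was lower in the GIRK1 libraries (0.246 and 0.132) than in wt replicate 2 and the eGFP libraries, whereas the ratio of SLC12A2 to SLC12A4 was 1.37 and 1.34 in GIRK1, inside the control range, and wt replicate 1 was highest in both panels.

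FXYD5 (dysadherin) is a regulator of the pump that also affects adhesion of epithelial cells (chromosome 19, 35154730 to 35169883, plus strand). It had 360 and 419 RPM in the eGFP libraries, 304 RPM in wt replicate 2, and 276 and 247 RPM in the GIRK1 libraries. The groups did not overlap, but the distance between wt replicate 2 and the nearer GIRK1 library was smaller than the range of the controls. The GIRK1 mean of 261 ± 20.9 RPM (SD, n = 2) was 72.4% of the control mean of 361 ± 57.2 RPM (SD, n = 3). The fitted log2 fold change was -0.61 (standard error 0.21) against eGFP and -0.49 (standard error 0.20) against the 3 controls. With wt replicate 1, which has no FXYD5 reads, among the controls, it was -0.08.

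FXYD3, a regulator of the pump found in glandular epithelium (chromosome 19, 35115879 to 35124324, plus strand), was at the limit of detection. It had 0 and 1 reads in eGFP, 7 reads in wt replicate 2 and 4 reads in each GIRK1 library, too few to be tested. The pooled level in GIRK1 was 1.46 times that in the controls (exact 95% interval 0.479 to 4.47), so a difference was not detectable from these few reads. Of the 7 FXYD genes, the other 5 (FXYD1, FXYD2, FXYD4, FXYD6 and FXYD7) had at most 3 reads in each of the 5 libraries. Only FXYD5 had substantial reads in these libraries. With 1 amplicon per gene, few reads do not show that a gene is not expressed.

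Of the cotransporters, SLC12A2 and SLC12A4 each had similar levels in the eGFP and GIRK1 libraries. SLC12A2, the chloride importer (chromosome 5, 128083766 to 128189688, plus strand), had 39.4 and 37.4 RPM in eGFP, 52.7 RPM in wt replicate 2 and 38.1 and 36.7 RPM in GIRK1. The GIRK1 libraries lay beside the eGFP libraries, and wt replicate 2 was the highest of the 5. The fitted log2 fold change was -0.08 (standard error 0.22) against eGFP and -0.23 (standard error 0.20) against the 3 controls. SLC12A4, an exporter of potassium and chloride (chromosome 16, 67943474 to 67969601, minus strand), had 31.6 and 27.7 RPM in eGFP, 24.8 RPM in wt replicate 2 and 27.7 and 27.4 RPM in GIRK1, with fitted log2 fold changes of -0.15 (standard error 0.24) and -0.05 (standard error 0.21). The ratio of SLC12A2 to SLC12A4 reads was 1.37 and 1.34 in GIRK1, against 1.25 and 1.35 in eGFP and 2.13 in wt replicate 2.

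SLC12A7, the other potassium-chloride exporter (chromosome 5, 1050376 to 1112035, minus strand), was detected with few reads. It had 0 and 7 reads in eGFP, 13 reads in wt replicate 2 and 8 and 19 reads in GIRK1 (0.720 and 1.84 RPM). The first GIRK1 library lay below wt replicate 2 (0.810 RPM) and the second above it, so the groups overlapped. Both GIRK1 libraries lay above both eGFP libraries (0 and 0.684 RPM), with a mean 3.74 times that of eGFP and a fitted log2 fold change of 1.56 (standard error 1.05). That value was 0.90 without eGFP replicate 1 and 6.77 without eGFP replicate 2, where the eGFP library that is left has 0 reads and the fitted value depends on how a count of 0 is treated. The pooled level in GIRK1 was 1.98 times that in the controls (exact 95% interval 1.07 to 3.72, counting error only).

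In the library labelled wt replicate 1, the same genes had other levels. ATP1B1 had 347 RPM, 7.04 times its level in wt replicate 2, and SLC12A2 had 234 RPM, 4.44 times that level. SLC12A7 had 15 reads (5.99 RPM), 7.39 times the level of wt replicate 2 (exact 95% interval 3.28 to 16.9). In the opposite direction, FXYD5 had 0 reads against 304 RPM in wt replicate 2, at least 254-fold lower by the floor of 3 reads. SLC12A4 had 4 reads, 15.5-fold lower than in wt replicate 2 (6.01 to 57.2), and SLC12A8 had 5 reads, 9.53-fold lower (4.04 to 29.6). ATP1B3 had 102 RPM and FXYD3 had 3 reads. With this library counted as a further control, the fitted log2 fold change of GIRK1 against the controls was -2.04 for ATP1B1, 0.21 for ATP1B3, -1.20 for SLC12A2 and 0.32 for SLC12A4. The ratio of ATP1B1 to ATP1B3 reads in this library was 3.39. SLC12A8 was thus lower than in the controls both in wt replicate 1 and in GIRK1, but by different amounts. Its level was 1.995 RPM in wt replicate 1 (exact 95% interval 0.648 to 4.66), against 0.360 and 0 RPM in the GIRK1 libraries. ATP1B1 was higher than the controls in wt replicate 1 and lower in GIRK1. The library labelled wt replicate 1 also differed from the others in the luminal and basal marker lists given above. The part of cell identity in the differences of these genes was not tested. None of these values can be taken as a property of parental MCF10A cells while the label is in doubt.

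The wider pathway was read from lists of genes chosen by function, with earlier results of these data known. The lists covered the remaining subunits and family members, the WNK-SPAK kinase module that switches the cotransporters, and other routes for sodium and chloride. The counts and p-values given below for their genes are therefore not independent tests. Apart from the 8 genes above, the lists held 44 genes, and 20 of them could be tested. Against eGFP, 0 of the 20 passed an adjusted p of 0.05 (quasi-likelihood test of edgeR, Benjamini-Hochberg adjusted), where 1.6% of all 11779 tested genes did. At an unadjusted p below 0.05 there were 5, 2 higher and 3 lower, beside 2218 of the 11779, and DESeq2 called 3 lower after adjustment, beside 677 genes called in all. Against the 3 controls, 1 of the 20 passed, where 1.21% of all genes did, and 6 passed unadjusted, beside 2134 of all 11389. The median log2 fold change of the 20 genes was 0.01 against eGFP and -0.07 against the 3 controls, beside 0.02 and -0.01 over all genes tested. By list, 6 of 13 genes of the WNK-SPAK module were tested and 1 passed, and 11 of 15 genes of other sodium and chloride routes were tested and 0 passed. Both GIRK1 libraries lay below all controls for 4 of the 20 (CAB39, NEDD4L, LRRC8C and LRRC8E) and above all for 4, among them SLC12A9, KLHL2 and SLC4A2, shares close to those of all genes given above.

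The gene that passed was NEDD4L, a ubiquitin ligase known for removing the epithelial sodium channel from the membrane. It had 108 RPM in wt replicate 2, 90.1 and 108 RPM in eGFP, and 54.9 and 47.1 RPM in GIRK1. It fell by 1.02 on the log2 scale against the 3 controls (standard error 0.17, adjusted p = 0.0453, quasi-likelihood test of edgeR, Benjamini-Hochberg adjusted), and its adjusted p against eGFP was 0.0787. Over the 12 alternative fits to the 3-control comparison the log2 fold change stayed between -1.12 and -0.73, with adjusted p from 1.02e-05 to 0.818 and 6 of 12 below 0.05. The call was lost with total-read scaling and without wt replicate 2, eGFP replicate 2 or either GIRK1 library, and with wt replicate 1 added.

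CAB39, the scaffold protein that activates the SPAK and OSR1 kinases, showed a difference of similar size that did not pass. It had 181 and 165 RPM in eGFP, 131 RPM in wt replicate 2 and 85.6 and 88.7 RPM in GIRK1 (log2 fold change -1.03, adjusted p = 0.0744 against eGFP, and -0.90, adjusted p = 0.107 against the 3 controls, by the same edgeR test). Over the alternative fits its edgeR or DESeq2 adjusted p ran from 0.000864 to 0.933 against eGFP, with 5 of 12 below 0.05, and from 0.00867 to 0.833 against the 3 controls, with 2 of 12 below 0.05. LRRC8C, a subunit of the volume-regulated anion channel, was named here after its values were seen. It had 22.4 and 17.8 RPM in eGFP, 13.0 RPM in wt replicate 2 and 6.93 and 6.57 RPM in GIRK1. Its log2 fold change was -1.61 against eGFP (edgeR adjusted p = 0.0523) and -1.41 against the 3 controls (edgeR adjusted p = 0.0909). In both comparisons it passed 0.05 without a filter, by DESeq2 and with replicate number in the fit. It did not pass with other normalizations, with at least 10 reads in every library, without wt replicate 2 or with wt replicate 1 added. For fits that leave 1 library in a group, passing is not given for this gene. Over the 12 alternative fits its log2 fold change stayed between -1.83 and -1.38 against eGFP. Against the 3 controls it stayed between -1.61 and -1.04. The kinases STK39 (SPAK) and OXSR1 (OSR1) themselves had log2 fold changes between -0.07 and 0.16 in both comparisons. SCNN1A, the alpha subunit of the epithelial sodium channel, had 136 and 112 RPM in eGFP, 86.0 RPM in wt replicate 2 and 113 and 92.2 RPM in GIRK1, so the groups overlapped (edgeR adjusted p = 0.486 against eGFP).

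In the SLC12 family, SLC12A1, SLC12A3 and SLC12A5 had at most 3 reads in each of the 5 libraries. SLC12A9, a more distant family member, had 35.5 and 29.1 RPM in GIRK1 against 14.2 to 24.3 RPM in the controls and did not pass (log2 fold change 0.63, edgeR adjusted p = 0.234 against the 3 controls).

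**Figure D3:**
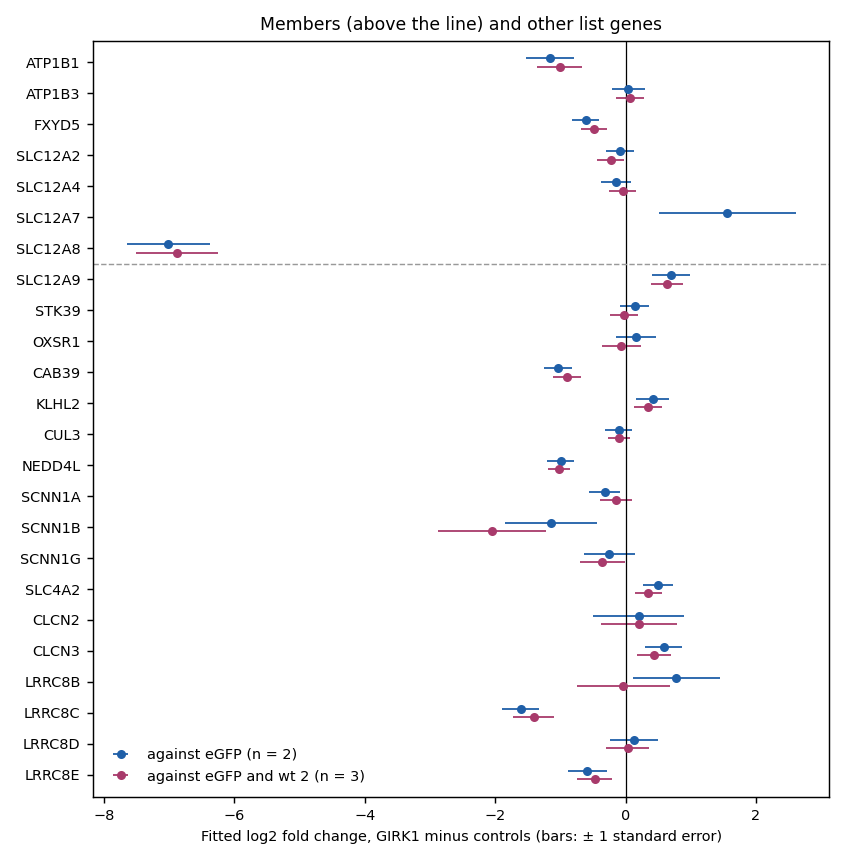
Fitted log2 fold change of GIRK1 against the eGFP libraries (blue) and against eGFP and wt replicate 2 (red) for the members with enough reads, above the dashed line, and for other genes of the pathway lists, with bars of 1 standard error. SLC12A8 stands apart at -7.02 and -6.88, fitted values that rest on 4 and 0 reads in the GIRK1 libraries. The other genes shown lie between -2.05 and 1.56.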

How the data were processed

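The authors used the transcriptome workflow of the Ion Torrent suite to map reads to AmpliSeq_Transcriptome_21K.v1. They deposited raw read counts per amplicon and RPM values, the counts scaled to the library total. Each gene has 1 amplicon, so levels are not compared between genes. The 10 spike-in rows held 0 reads and were left out. edgeR 4.0.16 in R 4.3.3 was run on the counts, with TMM normalization, filterByExpr, glmQLFit, glmQLFTest and Benjamini-Hochberg adjustment over all tested genes, in fits of 5 libraries without wt replicate 1. The first fit had group means and compared GIRK1 with eGFP. The second compared GIRK1 with eGFP and wt replicate 2 as 1 control group. The comparisons share libraries. Standard errors were derived from the F value. The procedure was tested on simulated counts. DESeq2 1.42.0 and other normalizations, filters and libraries were alternatives. The members and gene lists were chosen with earlier results of these data known. The text names all members, list genes that passed and list genes averaging 1000 reads or more. Nearest profiles (3 each) were taken for the largest fitted rise and fall against eGFP among members averaging 50 reads or more. Some genes that these rules name are not reported here. Further list genes were named after their values were seen. Intervals are exact (Clopper-Pearson) or conditional binomial. Gene positions are from GENCODE and upstream sequences from RefSeq, where all 8 symbols matched.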

Additional observations from a re-analysis of the deposited data

Results flagged for a closer look

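The library labelled wt replicate 1 was kept out of the fits that the values above come from unless stated. Only the 8 genes and KCNJ3 were examined here, and the share over all genes was not computed. Of these, 4 had more than 3 reads in that library and a 95% counting interval above those of wt replicate 2 and both eGFP libraries. FXYD3 was also higher there by level (1.20 RPM, against at most 0.436 RPM), but from only 3 reads. ATP1B1 had 347 RPM there, against at most 66.5 RPM in those controls. SLC12A2 had 234 RPM, against at most 52.7 RPM. SLC12A7 had 5.99 RPM, against at most 0.810 RPM. KCNJ3, the transgene of the GIRK1 line, had 19.2 RPM in this library and 0 reads in the controls.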

How the results depend on the processing

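The number of genes called moved with the fit. Against eGFP, 188 genes were called, and the number was 865 without a filter, 107 with at least 10 reads in every library, 677 by DESeq2 and 0 with wt replicate 1 among 6 libraries (599 unadjusted). Leaving out 1 library gave 159 to 2997, with 973 without eGFP replicate 1 and 2997 without eGFP replicate 2. Against the 3 controls, 91 genes were called higher and 47 lower, and the total was 374 without a filter, 798 by DESeq2 and 7 with wt replicate 1. Leaving out 1 library gave 19 to 984, with 984 without eGFP replicate 1, 31 without eGFP replicate 2, and 33 and 19 without the first and the second GIRK1 library. The criterion of the study, as it was read above, called 1309 genes, 2501 without the coefficient of variation and 430 with a fold of 3. Of the 20 other list genes tested, 0 were called against eGFP, and 3 without a filter and 3 by DESeq2, with 0 to 9 when 1 library was left out. Against the 3 controls, 1 was called, and 0 with total reads, 2 without a filter, 3 by DESeq2, 0 with wt replicate 1 and 0 to 4 when 1 library was left out. With 1 library of a group left out, the lone library is assumed to vary like the others.

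The replicate numbers of the labels were used as a block. The differences between replicates of eGFP and GIRK1 had a correlation of 0.193 across 9288 genes, and nothing states that a number marks a shared batch. With the block, 549 genes were called against eGFP and 558 against the 3 controls, and of the other list genes 3 and 2. ATP1B1 was called with the block in both comparisons.

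SCNN1A changed sign against the 3 controls with wt replicate 1 (0.19) and without eGFP replicate 1, with a range of -0.32 to 0.067 when 1 library was left out. It was not called in any of the fits run. SLC12A8 could not be fitted with at least 10 reads in every library, and it was called in 11 of 12 fits of each comparison. ATP1B1 was called in 6 of 13 fits against eGFP (without a filter, by DESeq2, with the block, and without GIRK1 replicate 1 or either eGFP library) and in 1 of 13 against the 3 controls, and FXYD5 in 2 of 13 against eGFP (without either eGFP library) and in 0 of 13 against the 3 controls. The median of all genes moved by less than 0.1 (log2) in each fit. The causes of these changes were not tested. The values of FXYD3 and SLC12A7 rest on few reads. Whether depth, the amplicon or a low level accounts for this was not tested.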
